A study of Homo sapiens with 4 samples.

Results

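The clustered replication-dependent histone genes encode the core histones H2A, H2B, H3 and H4 and the linker histone H1 that package newly made DNA. They were taken as every gene whose symbol follows the pattern of these families (H2AC, H2BC, H3C or H4C with a number, or H1-1 to H1-6), with no use of measured values, and 51 of the 22637 genes in the deposited table met this rule. They comprise 3 H1, 14 H2A, 13 H2B, 9 H3 and 12 H4 genes. A single RNA-seq library was made for each of 4 prostate cancer cell lines. LNCaP is a castration-sensitive line and C4-2B a castration-resistant line descended from it, and LN-OlapR and 2B-OlapR are their sublines, selected by long culture in stepwise more olaparib, an inhibitor of the DNA repair enzyme PARP, and maintained with the drug. All lines were plated without a selection agent, for 48 hours by the deposited description, before total RNA was isolated. The methods of the study give a longer plating time. Whether the resistant lines are clones or mixed populations was not given in the sources used here. The comparisons were 2B-OlapR with C4-2B (the 2B pair), LN-OlapR with LNCaP (the LN pair) and C4-2B with LNCaP, and the last shares a library with each of the others. With 1 library per line there was no replicate check and no test within a pair, and the intervals given are 95% intervals that cover counting error only.

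Library totals ranged from 19950537 to 26394267 counts. All 10 prostate luminal markers had values above the minimum in each comparison, with summed levels between 3673 and 6965 normalized CPM (counts relative to the scaled library size), and 3 of 12 markers of other cell types were listed, at summed levels between 7.38 and 19.0 normalized CPM. At least 2-fold higher were 1 prostate marker in 2B-OlapR over C4-2B (TMPRSS2), 3 in LN-OlapR over LNCaP and 1 in C4-2B over LNCaP, with none lower. Of the 3 other markers, COL1A1 was at least 2-fold lower in 2B-OlapR and ALB, at 99, 1, 0 and 1 counts in LNCaP, LN-OlapR, C4-2B and 2B-OlapR, in LN-OlapR and in C4-2B, each than in LNCaP. Among the prostate markers LNCaP stood apart for KLK3, which encodes prostate-specific antigen, with 1428, 62636, 49347 and 38749 counts in the same order. The floor of 3 counts for a gene with none corresponds to a level of 0.112 CPM in LNCaP, 0.129 CPM in LN-OlapR, 0.147 CPM in C4-2B and 0.145 CPM in 2B-OlapR. The upper ends of the Poisson intervals in the plots lie somewhat higher, at 0.137 CPM for 0 counts in LNCaP.

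Replication-dependent histone genes are transcribed in S phase, and their mRNAs end in a conserved stem-loop, bound by the stem-loop binding protein SLBP, instead of a poly(A) tail. Several of these genes also give polyadenylated transcripts that run past the stem-loop, for instance in cells that have left the cycle. The libraries were stranded mRNA libraries, a method that selects polyadenylated RNA, so the counts below describe mainly polyadenylated histone transcripts and not the whole pool of histone mRNA.

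The 3′ stem-loop is the feature that sets these mRNAs apart, and its forms among the members are shown 5′ to 3′ as DNA, with the paired stem bases in capitals and the loop in lower case. The pattern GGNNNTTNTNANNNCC was searched on the transcript strand of GENCODE release 29 transcripts, requiring 6 paired stem bases with G-T pairs allowed. A match was found in 29 of the 51 members, and in 140 of 19940 protein-coding genes (0.702%).
H2A, H2B and H3 form, 16 members including H2AC6, H2AC18, H2BC21 and H3C10: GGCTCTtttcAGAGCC
H2B form of H2BC4, H2BC5 and H2BC7: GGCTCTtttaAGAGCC
H4 form of H4C2, H4C5, H4C8, H4C11 and H4C16: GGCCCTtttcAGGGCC
H4 form of H4C9, H4C14 and H4C15: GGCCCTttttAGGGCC
H2AC11: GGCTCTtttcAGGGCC
H3C6: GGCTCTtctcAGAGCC
The stem differed between H4 and most of the other core histone genes, and the loop varied within H2B, within H3 and within H4. Of the members with a match, 21 had an annotated transcript running at least 100 bases past the loop (116 to 1917 bases, median 1154), which is the kind of transcript that could carry a poly(A) tail. For 8 members the transcripts that hold the loop ended within 100 bases of it. H2BC5 is among these, but its annotated model runs on from the loop (26158587 to 26158602) to 26171349, in a transcript without the loop. For 19 members, H1-2 and H2BC12 among them, the annotation gave no 3′ untranslated region, so the absence of a match there says nothing about the gene. H1-4, H2BC11 and H4C3 had an annotated 3′ region without a match. The models of H4C3 and H1-4 end short of the RefSeq genes, at 26104310 against 26104337 and at 26157107 against 26157115. The H2BC11 models have 950 exon bases within 27125897 to 27132750, so part of that span lies outside their exons. The missing match therefore does not show that these genes lack a stem-loop.

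The promoters of H2A and H2B genes are known for an octamer, ATTTGCAT. RefSeq promoter windows (GRCh38, from 250 bases before to 50 bases after the start site) were given for 48 members, and the octamer on either strand lay in 9 of 14 H2A, 9 of 13 H2B, 1 of 8 H3, 0 of 10 H4 and 0 of 3 H1 windows, against 1.8% of all 27305 windows. The windows of neighbouring head-to-head genes overlap, so these 19 windows held 12 separate octamer sites, and the H3 window, that of H3C4, shared its site with H2AC7 and H2BC7. The windows around it in the H2B genes on which the results below turn are shown 5′ to 3′ on the strand of the gene, which is the minus strand for each, with the octamer in capitals.
H2BC12, chr6:27146887-27146914: tcttcaccttATTTGCATgagaggtcct
H2BC11, chr6:27132825-27132852: tcttcaccttATTTGCATaagcgattct
H2BC4, chr6:26124032-26124059: ttcatacctcATTTGCATagctctgccc
H2BC21, chr1:149886711-149886738: cggagccctaATTTGCATaaggtggtta
H2BC8, chr6:26216719-26216746: tgaattctttATTTGCATgaaaggccta
H2BC12 and H2BC11, both in the same cluster on chromosome 6, shared the bases shown before the octamer. The CCAAT box (CCAAT, either strand) lay in every H1, H2A, H2B and H3 window but in 1 of 10 H4 windows, against 35.7% of all windows, and the TATA box (TATAAA, either strand) in 32 of 48 windows against 12% of all. The CCAAT and TATA counts are of windows and were not reduced to separate sites. In the windows of H2BC4, H2AC8 and H2BC17 the only TATA box was the one near the start of the head-to-head partner (H2AC6, H2BC8 and H2AC17). All these matches describe the sequence and are not shown to be bound sites.

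The 51 genes together gave a small share of each library, and that share was lowest in LN-OlapR. In the order LNCaP, LN-OlapR, C4-2B and 2B-OlapR, which is kept for every set of 4 values below, their summed counts were 20857, 10408, 18943 and 15485, or 0.0790%, 0.0429%, 0.0949% and 0.0745% of all counts. On the scale of normalized CPM the sums were 775.9, 446.2, 925.7 and 747.3. The summed level was thus lower in each resistant line than in its parental line, by 1.74-fold in the LN pair (log2 ratio -0.80, interval -0.83 to -0.76) and by 1.24-fold in the 2B pair (log2 ratio -0.31, interval -0.34 to -0.28), and it was 1.19-fold higher in C4-2B than in LNCaP (log2 ratio 0.25, interval 0.23 to 0.28). In bulk RNA, fewer cells that express these genes and less RNA per cell cannot be told apart. The 5 members with the most counts gave 62.1% to 71.1% of the summed counts, so the sums rest on few genes. At least 10 counts were reached by 40, 34, 44 and 42 of the 51 members, and 2, 4, 0 and 1 members were at 0.

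**Figure D1:**
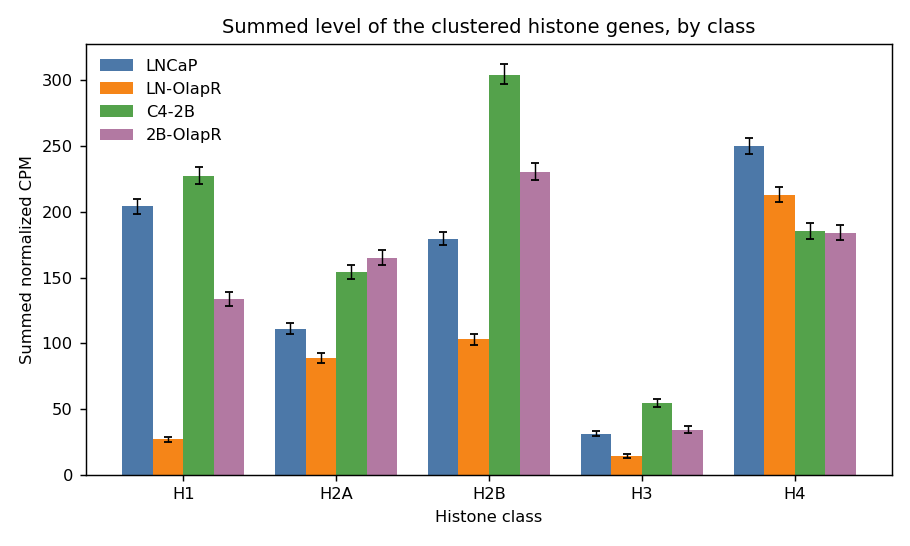
Summed normalized CPM of the H1, H2A, H2B, H3 and H4 genes in each of the 4 cell lines (1 library each), with 95% counting intervals. The H1 sum is 204 in LNCaP and 26.9 in LN-OlapR, whereas the H4 sums of the same libraries lie at 250 and 213.

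The histone classes differed in how far apart the lines lay. The linker histone genes had the widest spread, with summed levels of 204, 26.9, 228 and 134 normalized CPM. As a share of the members' counts, H1 genes gave 26.3%, 6.03%, 24.6% and 17.9%. The H4 genes gave 32.2%, 47.7%, 20.0% and 24.6%, with summed levels of 250, 213, 185 and 184 normalized CPM, so LN-OlapR had the lowest share of H1 and the highest share of H4. Summed H2B levels were 179, 103, 304 and 230 normalized CPM, and summed H3 levels were 31.3, 14.3, 54.4 and 34.2 normalized CPM. H2A was the class whose sum was highest in 2B-OlapR, at 111, 88.9, 154 and 165 normalized CPM.

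LN-OlapR was compared with LNCaP to ask how the olaparib-resistant line differs from the castration-sensitive line it came from. Differences of 2-fold or more were counted where the mean level of both libraries reached 1 normalized CPM, and 28 of the 51 members passed this minimum. Of these, 11 were at least 2-fold lower in LN-OlapR, where 4.83% of all 15373 genes analyzed were, and 2 were at least 2-fold higher, where 4.64% of all genes were. The 11 lower genes were H1-2, H2AC6, H2AC11, H2AC17, H2BC4, H2BC11, H2BC12, H2BC18, H3C10, H4C12 and H4C14, so every class was present. The 2 higher genes, H4C11 and H4C16, both encode H4, and H4C16 had only 1 count in LNCaP, under the floor. H4C11, H4C12 and H4C14 were no longer past 2-fold when counted together with the copy of the same coding sequence. The median log2 ratio was -0.55 over the 28 members and -0.004 over all genes analyzed. With no minimum, 39 of the 51 members had a ratio below 0 and 25 had a whole interval below 0, while 12 had a ratio above 0 and 6 a whole interval above it. Over all 22637 genes with no minimum, 50.3% had a ratio below 0, 24.03% a whole interval below it and 24.2% a whole interval above it.

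H1-2, a linker histone that binds DNA between nucleosomes, had the most counts of all members in LNCaP, C4-2B and 2B-OlapR but not in LN-OlapR. Its counts were 5440, 605, 4556 and 2664, or 202, 25.9, 223 and 129 normalized CPM, which places LN-OlapR well apart from the other lines. In the LN pair H1-2 was 7.80-fold lower in the resistant line (log2 ratio -2.96, interval -3.08 to -2.84). Without H1-2 the summed members of this pair differed by a log2 ratio of -0.45 (interval -0.48 to -0.41). The other linker genes were scarce. H1-4 had 35, 15, 53 and 34 counts and H1-5 had 10, 8, 47 and 70 counts, and neither passed the minimum in the LN pair.

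Among the H2A genes, H2AC6, with an annotated transcript that runs past its stem-loop, had 788, 312, 1002 and 717 counts and was 2.19-fold lower in LN-OlapR (log2 ratio -1.13, interval -1.32 to -0.94). The copies H2AC18 and H2AC19, with the same coding sequence, differed less in this pair. H2AC18 had 692, 471, 682 and 1103 counts (log2 ratio -0.35) and H2AC19 had 586, 389, 597 and 833 counts (log2 ratio -0.39). Both were highest in 2B-OlapR and lowest in LN-OlapR. H2AC25 went the other way, with 637, 708, 490 and 460 counts and a log2 ratio of 0.36 (interval 0.20 to 0.51). It lies apart from the other H2A genes, in a small cluster on chromosome 1.

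H2BC12 had the most counts of the H2B genes in LNCaP, C4-2B and 2B-OlapR, at 2316, 807, 3462 and 2517 counts, or 86.2, 34.6, 169 and 121 normalized CPM. Its level in LN-OlapR was 2.49-fold below that in LNCaP (log2 ratio -1.32, interval -1.43 to -1.20). The differences were wider for H2BC11, with 323, 43, 503 and 405 counts (log2 ratio -2.69, interval -3.15 to -2.23), and for H2BC4, with 173, 35, 265 and 157 counts (log2 ratio -2.08, interval -2.61 to -1.56). These 3 genes share the octamer shown above with H2BC21, whose 1361, 1003, 1309 and 1199 counts lay closer together (log2 ratio -0.24, interval -0.35 to -0.12). H2BC5 had 229, 162, 289 and 177 counts, with a log2 ratio of -0.29 in the LN pair and an interval that reached almost to 0. H2BC26 was higher in LN-OlapR, at 114, 159, 72 and 70 counts (log2 ratio 0.68, interval 0.34 to 1.03), as was its divergent partner H2AC25.

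H3C10, the H3 gene with the most counts in all 4 libraries, had 517, 185, 783 and 422 counts and was 2.42-fold lower in LN-OlapR (log2 ratio -1.28, interval -1.52 to -1.03). H3C6 followed with 210, 118, 172 and 132 counts (log2 ratio -0.62, interval -0.95 to -0.30). The next 2 genes encode the same protein from the same coding sequence. H3C14 had 34, 21, 54 and 86 counts and H3C15 had 25, 1, 45 and 15 counts, and the latter did not pass the minimum in the LN pair.

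H4C3, the H4 gene with the most counts, behaved differently from H1-2 and H2BC12. Its counts were 4925, 3999, 1787 and 2132, or 183, 171, 87.3 and 103 normalized CPM, so the LN pair differed by a log2 ratio of -0.10 (interval -0.16 to -0.04) and H4C3 had the most counts of all members in LN-OlapR. H4C14 had 770, 308, 890 and 708 counts (log2 ratio -1.12, interval -1.31 to -0.93), H4C8 had 402, 198, 393 and 286 counts (log2 ratio -0.82) and H4C15 had 403, 258, 528 and 536 counts (log2 ratio -0.44). Without H4C3, the summed H4 genes of the LN pair had a log2 ratio of -0.68 in place of -0.23. Of the 12 H4 genes, 9 passed the minimum in this pair, among them H4C1 with 49, 56, 68 and 53 counts (log2 ratio 0.40, interval -0.15 to 0.95).

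**Figure D2:**
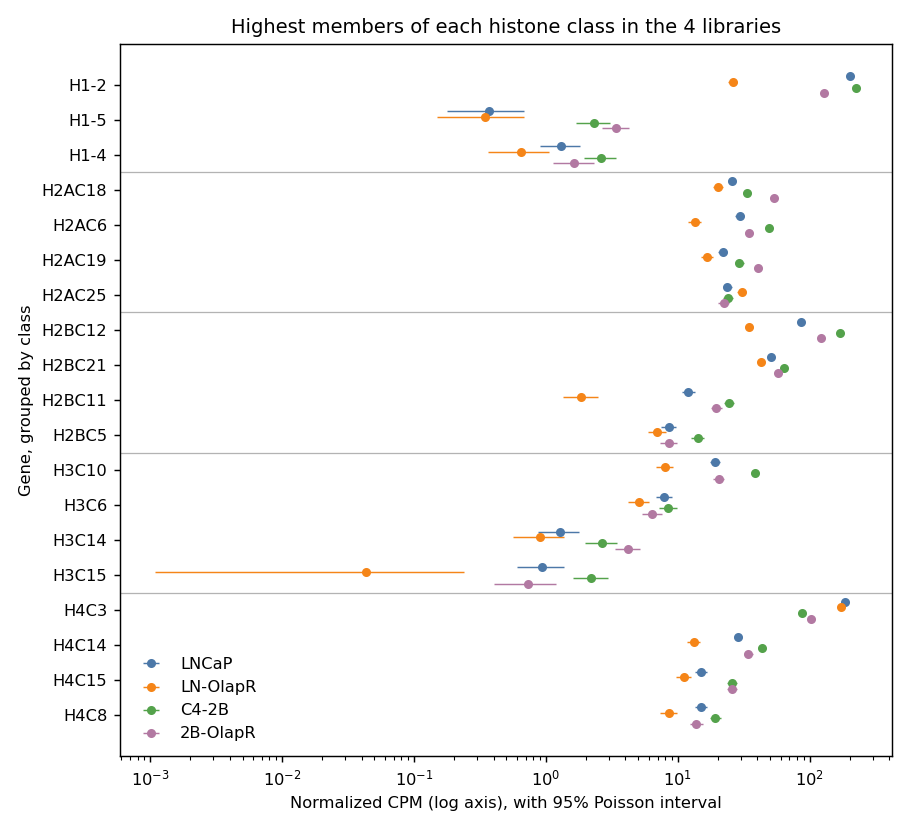
Normalized CPM of the members of each class with the highest mean level in the 4 libraries on a log axis, with Poisson intervals. H1-2 and H2BC12 are lowest in LN-OlapR, at 25.9 and 34.6, whereas H4C3 is lowest in C4-2B, at 87.3.

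2B-OlapR was compared with C4-2B to ask the same question in the castration-resistant background. Here 36 of the 51 members passed the minimum, none was at least 2-fold higher (4.42% of all 15527 genes analyzed were), and 1, H3C15, was at least 2-fold lower (5.65% of all genes were). The share of members past 2-fold was therefore no larger than that of all genes. Most ratios were nonetheless below 0. Of the 36 members, 28 had a ratio below 0 and 8 above it, with 15 and 6 whole intervals, and the median log2 ratio was -0.35 against -0.0003 over all genes analyzed. Of all genes analyzed in this pair, 50.02% had a ratio below 0, 30.8% a whole interval below it and 31.5% a whole interval above it. Without the minimum, 37 of the 51 members had a ratio below 0.

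The lowest ratios of the 2B pair belonged to H3C15 (log2 ratio -1.57, interval -2.40 to -0.74), H3C10 (-0.91, -1.08 to -0.74), H2BC13 (-0.82, -1.67 to 0.03), H1-2 (-0.79, -0.86 to -0.72) and H2BC4 (-0.77, -1.06 to -0.49). H1-2 and H3C10 were thus lower in both resistant lines, by 1.73-fold and 1.88-fold in the 2B pair. H2BC13 had only 31, 18, 30 and 17 counts and its interval included 0. H2BC12 (log2 ratio -0.48) and H2AC6 (-0.50) also had whole intervals below 0 in both pairs. At the other end stood H4C11 (0.76, 0.01 to 1.51), H2AC18 (0.68, 0.54 to 0.81), H3C14 (0.65, 0.16 to 1.14), H1-5 (0.55, 0.02 to 1.08) and H2AC19 (0.46, 0.31 to 0.61). Of these, H2AC18 and H2AC19 were the only ones with more than 100 counts in each library. Their summed counts, which do not depend on how reads were split between the copies, were 1278, 860, 1279 and 1936, a log2 ratio of 0.58 in the 2B pair (interval 0.48 to 0.68) and -0.37 in the LN pair (interval -0.49 to -0.24).

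The H2A sum was the only class sum above 0 in the 2B pair, with a log2 ratio of 0.10 (interval 0.03 to 0.17), and without H2AC18 it was -0.11 (interval -0.19 to -0.03). The other class sums had log2 ratios of -0.77 for H1, -0.40 for H2B, -0.67 for H3 and -0.01 for H4 (interval -0.08 to 0.05). In the H1 class the value rested on H1-2, since the summed H1-4 and H1-5 had a log2 ratio of 0.04 (interval -0.36 to 0.43). Over the 26 members that passed the minimum in both pairs, 14 ratios were below 0 in both and 1, that of H4C11, was above 0 in both. The LN ratio was the lower one in 19 of the 26. These counts were not made over all genes, so they have no share to be set against. Summed with its copy H4C12, H4C11 had log2 ratios of 0.14 in the 2B pair (interval -0.52 to 0.80) and -0.55 in the LN pair. The resistant lines were also set against the parental lines in an edgeR quasi-likelihood fit over all 4 libraries with the background as a block, in which the 2 backgrounds stood in for replicates. None of the 33 members with a mean level of at least 1 normalized CPM over the 4 libraries passed a Benjamini-Hochberg adjusted p of 0.05 in that fit, nor did any of the 15645 genes (0%), of which 1273 had an unadjusted p under 0.05. At an unadjusted p under 0.05, 8 members were lower in the resistant lines, where 4.23% of all genes were, and none was higher. These were H1-2, H2AC6, H2BC4, H2BC12, H3C10, H4C8, H4C12 and H4C14. In that fit H4C12 had a log2 ratio of -3.52 and its copy of the same coding sequence, H4C11, 1.26. H4C14 had -0.73 and its copy H4C15 -0.22. The copies were not summed in the fit, so these calls depend on how reads were split between them. Without the block, 0 members reached an unadjusted p of 0.05.

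**Figure D3:**
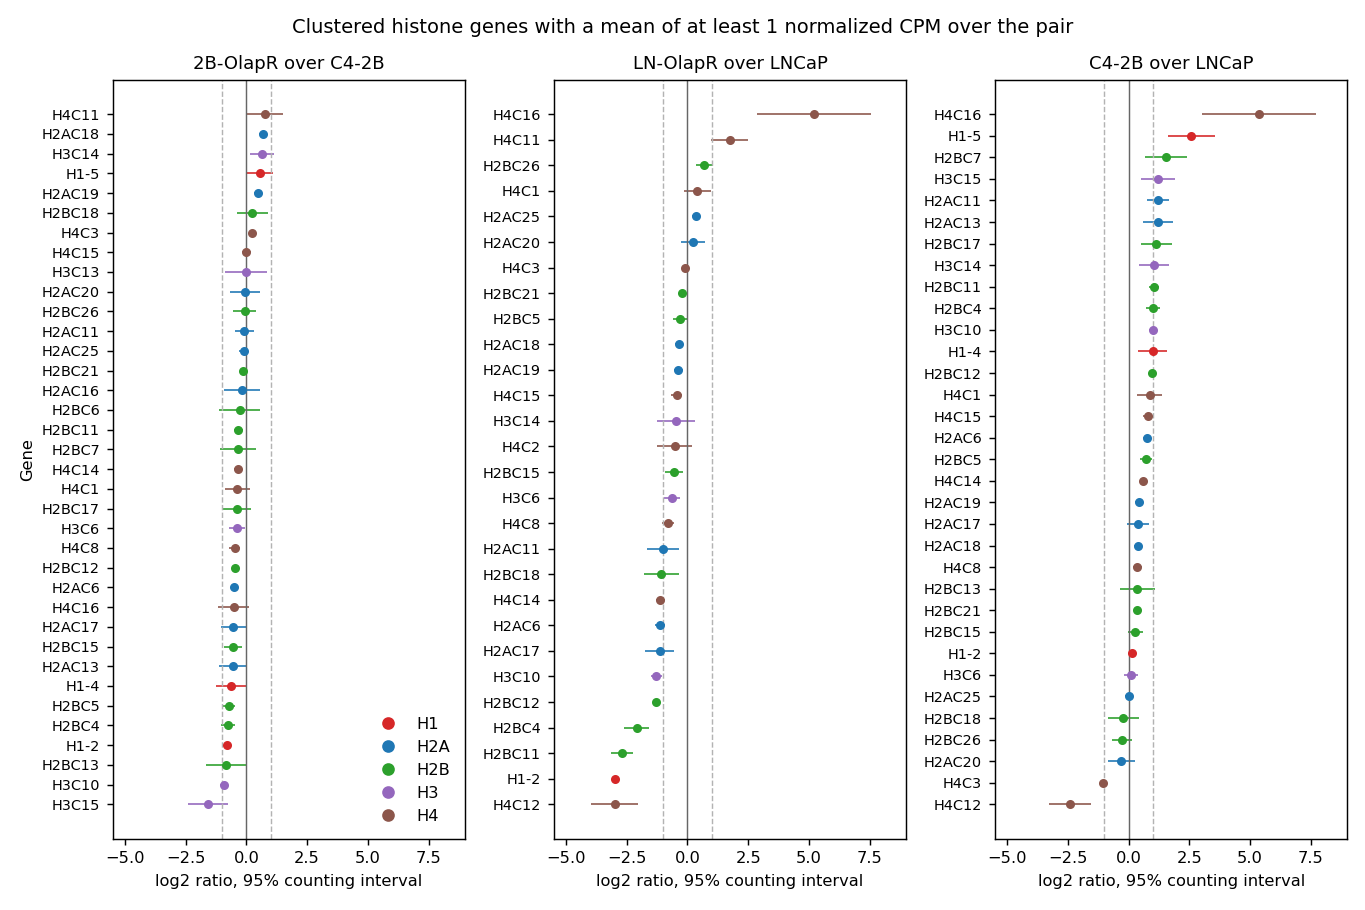
Log2 ratios of the members in the 3 comparisons, with 95% counting intervals and lines at 0 and at 2-fold. In the LN pair H1-2, H2BC11 and H2BC4 lie at -2.96, -2.69 and -2.08, and in the 2B pair the lowest ratio, that of H3C15, is -1.57.

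C4-2B was compared with LNCaP as the castration-resistant and the castration-sensitive parental line. In this comparison 33 of the 51 members passed the minimum, 10 were at least 2-fold higher in C4-2B (8% of all 15580 genes analyzed were) and 2 were at least 2-fold lower (7.18% of all genes were). The median log2 ratio was 0.73 against -0.02 over all genes. The higher genes were H1-5, H2AC11, H2AC13, H2BC4, H2BC7, H2BC11, H2BC17, H3C14, H3C15 and H4C16, the last against only 1 count in LNCaP. The lower genes were H4C3, at 1787 counts in C4-2B and 4925 in LNCaP (log2 ratio -1.07, interval -1.15 to -0.99), and H4C12, at 12 and 87 counts (log2 ratio -2.41, interval -3.27 to -1.56). Next above them were H2AC20 (log2 ratio -0.31), H2BC26 (-0.27) and H2BC18 (-0.21), whose intervals included 0. H1-2, by contrast, differed little, with a log2 ratio of 0.14 (interval 0.08 to 0.19), and H2BC12 and H3C10 lay just under 2-fold, at 0.97 and 0.99. H1-5 was 5.94-fold higher on 47 against 10 counts (log2 ratio 2.57, interval 1.61 to 3.54), and H2BC7 was 2.92-fold higher on 34 against 15 counts. H3C15 and H2AC11 followed, at log2 ratios of 1.23 and 1.21. The H4 sum was lower in C4-2B (log2 ratio -0.43), but without H4C3 it was higher (0.56, interval 0.46 to 0.65). Since C4-2B also enters the 2B pair and LNCaP the LN pair, these values are not independent of those above.

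Between genes, levels can be compared only per length, here as normalized CPM per kb of annotated exon averaged over the 4 libraries. H4C3 had the highest mean at 313 CPM per kb, followed by H2BC12 at 270 and H1-2 at 226. The order varied between the libraries. H4C3 had 421, 394, 201 and 237 CPM per kb, H2BC12 226, 90.8, 444 and 319, and H1-2 315, 40.4, 347 and 200.3, so H2BC12 was the highest in C4-2B and 2B-OlapR. In LN-OlapR the level of H1-2 was close to that of H2AC18, which had 46.9, 36.8, 60.7 and 97.0 CPM per kb. The next means were those of H2AC18 at 60.3, H2AC19 at 47.8, H2AC25 at 27.99, H2BC21 at 24.6, H2AC6 at 18.9 and H3C10 at 17.3. The lengths come from GENCODE release 29, in which H1-2 and H2BC12 hold the coding sequence only, and a longer model in the annotation behind the counts would lower their values.

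By position, 20 members lie in the first of 3 groups on chromosome 6 (26020451 to 26285534, GRCh38), 4 in the second (27132316 to 27146858) and 13 in the third (27807479 to 27893891), while 11 lie in a first group on chromosome 1 (149782689 to 149887965), 2 in a second (228457364 to 228458558) and H4C16 alone on chromosome 12. Summed levels of the first chromosome 6 group were 460.3, 241.5, 426.6 and 312.0 normalized CPM. The second group, which holds H2BC11, H2BC12, H2AC11 and H4C9, had sums of 100.8, 37.7, 200.4 and 146.4, and the 3 of its genes that passed the minimum were each at least 2-fold lower in LN-OlapR. The third group had sums of 37.6, 18.7, 63.3 and 40.4. In these 3 groups LN-OlapR was thus the lowest line. The first chromosome 1 group, with sums of 149, 109, 206 and 221, was highest in 2B-OlapR, and the second, with 27.9, 37.2, 27.5 and 25.6, was highest in LN-OlapR. Its 2 genes, H2AC25 and H2BC26, had a ratio above 0 in the LN pair, whereas 4 of 5, 3 of 3, 8 of 9 and 7 of 8 members that passed had one below 0 in the third, second and first chromosome 6 groups and the first chromosome 1 group.

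H2A and H2B genes often stand head to head and share the DNA between their start sites. In 9 such pairs both genes were analyzed, with 194 to 248 bases between the start sites, and in 6 of the pairs both windows held the octamer. In the LN pair both genes had a ratio below 0 in 4 pairs, above 0 in 2 and on opposite sides in 3, and in the 2B pair both were below 0 in 8 and on opposite sides in 1. No minimum was used, and other gene pairs were not counted, so there is no share to set beside these counts. Every split pair held a gene whose interval included 0. These were H2AC20 (0.23, -0.26 to 0.71), H2AC15 (0.05, -0.88 to 0.98) and H2BC7 (0.005, -1.05 to 1.06) in the LN pair, and H2AC7 (0.67, -0.74 to 2.09) in the 2B pair. Some pairs on the same side also held such a gene, for instance H2BC13 in the LN pair. Partners could nevertheless differ in size. H2BC11 had a log2 ratio of -2.69 in the LN pair and its partner H2AC11, 248 bases away, -1.003 (interval -1.65 to -0.36), on 63, 27, 111 and 106 counts. H2BC4 had -2.08 and H2AC6, 246 bases away, -1.13. The levels of partners were unequal as well, as H2BC21 had a mean of 24.6 CPM per kb and H2AC20, 236 bases away, one of 5.99. H2AC20 had 67, 68, 41 and 40 counts.

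H2AC8 and H2BC8, 233 bases apart, were a pair with no counts in LNCaP. H2AC8 had 0, 30, 20 and 5 counts and H2BC8 had 0, 39, 8 and 2 counts. Against the floor of 3 counts per library, LN-OlapR was at least 11.5-fold higher for H2AC8 and at least 14.98-fold higher for H2BC8, and C4-2B was at least 8.76-fold and 3.50-fold higher. These bounds leave out the counting error of the library with counts. The intervals of the log2 ratios began at 2.10 for H2AC8 and 2.48 for H2BC8 in the LN pair, and at 1.70 and 0.37 for C4-2B over LNCaP. Neither gene passed the minimum in any comparison. Their direction in the LN pair was opposite to that of most members, and the octamer window of H2BC8 is shown above. In the 2B pair H2AC8 had a log2 ratio of -1.92 (interval -3.27 to -0.56) and H2BC8 one of -1.78 (interval -3.82 to 0.25).

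**Figure D4:**
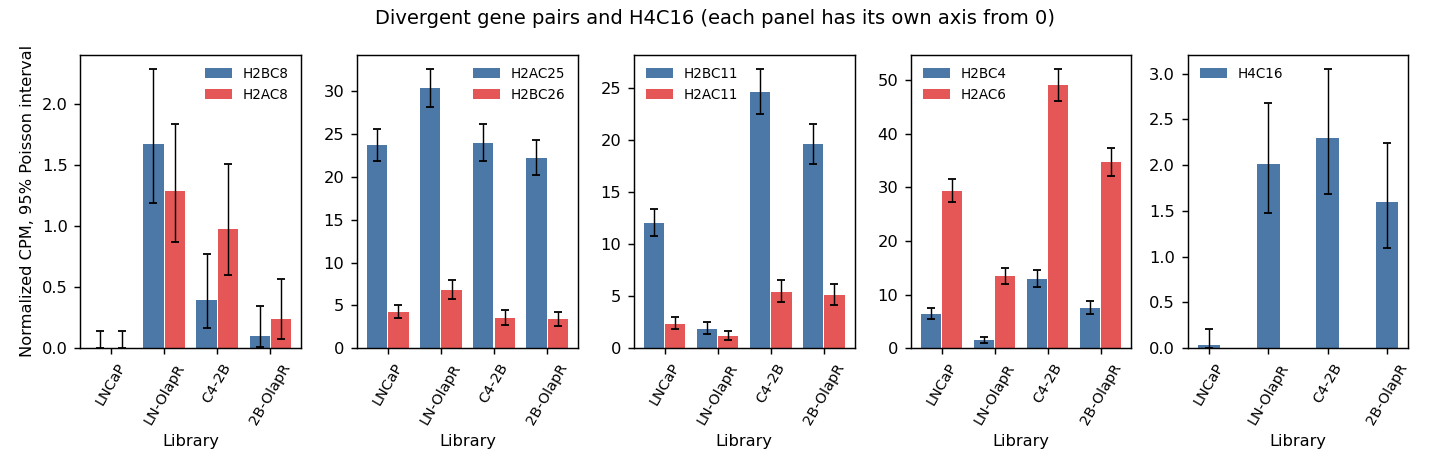
Normalized CPM of both genes of 4 head-to-head pairs, and of H4C16, in the 4 libraries, with 95% Poisson intervals and an axis from 0 in each panel. H2BC11 is at 1.84 in LN-OlapR and 12.02 in LNCaP, whereas H2BC8 is at 1.67 in LN-OlapR and 0 in LNCaP.

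H4C16 (chr12:14770720-14771131, GRCh38), the only member outside chromosomes 1 and 6, had 1, 47, 47 and 33 counts. LNCaP stood alone, with log2 ratios of 5.19 in the LN pair (interval 2.84 to 7.53) and 5.38 for C4-2B over LNCaP (interval 3.03 to 7.72). The 1 count in LNCaP lies under the floor of 3, so the size of both ratios depends in part on the pseudocount. H4C16 passed the minimum in both comparisons, at 1.03 and 1.17 normalized CPM, only through the library with more counts. The next gene along the chromosome, H2AJ (14774405 to 14778002), is a replication-independent H2A variant with 0, 4712, 4662 and 4255 counts. The gene beyond it, WBP11, had 2839, 2552, 2381 and 2407 counts. H4C16 and H2AJ thus shared the absence or near absence of counts in LNCaP, and WBP11 did not. Whether reads of one gene were counted for the other was not tested.

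Several members share a coding sequence or overlap, so the split of reads between them is uncertain. Within a tolerance of 1e-06, the deposited values were whole numbers in all 4 libraries for 28 members, among them H1-2, H2BC4, H2BC11 and H4C3, and not whole in at least 1 library for 23, among them all 8 genes that share a coding sequence. With a tolerance of 0.01 these numbers were 31 and 20, and the 8 genes stayed among the latter. H4C11 and H4C12, with the same coding sequence, had 18, 53, 22 and 38 and 87, 9, 12 and 0 counts, a pattern that crossed between the genes. In the LN pair the log2 ratio was 1.74 for H4C11 (interval 0.97 to 2.50) and -2.999 for H4C12 (interval -3.96 to -2.03), but their summed counts of 105, 62, 34 and 38 gave -0.55 (interval -1.002 to -0.10). In the 2B pair H4C12 was at least 4.05-fold lower in 2B-OlapR against the floor (interval of the log2 ratio -8.74 to -0.58), and the sum had a log2 ratio of 0.14 (interval -0.52 to 0.80). H3C14 and H3C15 together had 59, 22, 99 and 101 counts, which left a log2 ratio of 0.01 in the 2B pair (interval -0.39 to 0.41) in place of 0.65 and -1.57 for the single genes. H3C15, the only member past 2-fold in the 2B pair, was thus no longer so once its copy was added. In the LN pair that sum had a log2 ratio of -1.20 (interval -1.90 to -0.50). H4C14 and H4C15 together had 1173, 566, 1418 and 1244 counts, with log2 ratios of -0.85 in the LN pair and -0.21 in the 2B pair. The remaining members were scarce, and 13 of the 51 passed the minimum in no comparison, with 0 to 39 counts per library. By position in RefSeq, H2AC19 and H3C15 overlap H4C15, H2AC7 overlaps H3C4 and H2BC12 overlaps H4C9. In the GENCODE spans, H2BC15 also covers H2AC15 and H2AC16, H3C14 overlaps H4C14 and H3C12 overlaps H2AC17. Whether the counting used the strand was not given in the sources used here.

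Few genes of the machinery that makes and removes histone mRNA differed by 2-fold. Of all genes analyzed, 4.42% to 5.65% were past 2-fold each way in the resistant pairs. In C4-2B over LNCaP 8% were higher and 7.18% lower. In lists of 15 to 20 genes, counts of 0 or 1 lie near these shares and do not set a list apart. The same shares apply to the lists in the paragraphs below. Among 18 genes of histone pre-mRNA 3′ end processing, none was at least 2-fold higher or lower in either resistant line, with median log2 ratios of 0.04 in the LN pair and 0.13 in the 2B pair. SLBP, which binds the stem-loop, had 2085, 2148, 1727 and 2786 counts, or 77.6, 92.1, 84.4 and 134 normalized CPM, and was higher in both resistant lines (log2 ratio 0.67 in the 2B pair, interval 0.59 to 0.76, and 0.25 in the LN pair, interval 0.16 to 0.33). LSM11, a subunit of the U7 particle that guides the cleavage, had 255, 147, 180 and 305 counts, the highest ratio of the list in the 2B pair (0.74) and the lowest in the LN pair (-0.59). The opposite ends were CPSF2 in the 2B pair (-0.33) and SNRPE in the LN pair (0.53). In C4-2B over LNCaP, CASP8AP2, which acts with LSM11 in the cleavage, was the 1 gene of the list past 2-fold, at 137 against 613 counts (log2 ratio -1.76), SNRPG stood highest (0.37) and the median was -0.09.

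Among 15 genes of histone gene transcription, NFYB, a subunit of the factor that binds CCAAT, was at least 2-fold lower in 2B-OlapR (log2 ratio -1.16), and no gene passed 2-fold in the other comparisons. NFYB was also the lowest of the LN pair (-0.39), where HINFP, an activator of H4 genes, was the highest (0.24), and the highest elsewhere were E2F1 in the 2B pair (0.81) and E2F2 in C4-2B over LNCaP (0.59). The medians were 0.02, -0.003 and -0.03 in the 2B pair, the LN pair and C4-2B over LNCaP. NPAT, the coactivator of histone gene transcription in S phase, had 641, 433, 335 and 283 counts, or 23.8, 18.6, 16.4 and 13.7 normalized CPM, and was lower in each resistant line (log2 ratios of -0.36 in the LN pair and -0.26 in the 2B pair), and was the lowest of its list in C4-2B over LNCaP (-0.54).

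Of 15 genes of histone mRNA decay and 20 histone chaperones, none passed 2-fold in any comparison, with medians from -0.02 to 0.09 and from -0.13 to 0.11. The exonuclease XRN1 had the lowest decay ratio in the 2B pair (-0.35) and the highest in the LN pair (0.60), the other ends being LSM6 (0.48) and LSM5 (-0.31), and in C4-2B over LNCaP the ends were LSM2 (0.75) and LSM5 (-0.79). NAP1L1, a chaperone of H2A and H2B, was the lowest chaperone in both pairs (-0.996 and -0.72), with TONSL (0.66) and RBBP4 (0.13) the highest, and in C4-2B over LNCaP the ends were DAXX (0.40) and ASF1A (-0.94).

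None of 20 S-phase genes passed 2-fold in either pair. Their median log2 ratio was -0.06 in the LN pair and 0.31 in the 2B pair, and the summed levels were 2823, 2969, 3399 and 4139 normalized CPM. In C4-2B over LNCaP the median was 0.14 and 1 gene, CDT1, a licensing factor of replication origins, was at least 2-fold higher (log2 ratio 1.16) and MCM6 lowest (-0.50). The ends were MCM3 (0.79) and GINS3 (-0.62) in the 2B pair, and MCM7 (0.41) and CDC45 (-0.77) in the LN pair. The S-phase sum was thus higher in each resistant line than in its parental line. In the LN pair, however, 11 of the 20 genes had a ratio below 0 and 9 above it, with 10 and 7 whole intervals. In the 2B pair 5 were below 0 and 15 above it, with 4 and 12 whole intervals. The part of the cell cycle distribution in the members' levels was not tested.

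Among 11 replication-independent histone variants, which are made outside S phase as well, MACROH2A2 was at least 2-fold lower in both resistant lines (log2 ratios of -4.32 in the LN pair and -4.25 in the 2B pair) and in C4-2B than in LNCaP (-2.92), and MACROH2A1 was the highest of the 2B pair (0.62). Counting H2AJ, the list had 1 gene at least 2-fold higher and 1 lower in the LN pair, 0 and 1 in the 2B pair, and 1 and 1 in C4-2B over LNCaP, with medians of -0.20, -0.01 and 0.24. As a measure of how much RNA without a poly(A) tail entered each library, 9 of 17 listed non-polyadenylated RNAs had values, with summed levels of 255, 236, 291 and 284 normalized CPM. RMRP in the 2B pair (log2 ratio 1.01) and SCARNA7 in the LN pair (1.40) were at least 2-fold higher, and RPPH1 was at least 2-fold lower in C4-2B than in LNCaP (-1.32). The other ends were RN7SK in the 2B pair (-0.92), RMRP in the LN pair (-0.41) and RN7SL1 in C4-2B over LNCaP (0.99), and the medians were -0.09, -0.07 and -0.40. Within each pair the sum was lower in the resistant line, but the single RNAs were split. Of those that passed the minimum, 5 of 8 had a ratio below 0 in the LN pair and 3 of 6 in the 2B pair. The part of such RNA in the members' levels was not tested.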

How the data were processed

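Stranded mRNA libraries were made from total RNA of 4 cell lines. The authors deposited estimated counts per gene (expected counts, 45.9% of values not whole at a tolerance of 1e-06 and 38% at 0.01), not scaled between libraries. STAR, Partek and GRCh38 (hg38) are named in the submitters' processing notes. The annotation, and whether counting used the strand, are not given in the sources used here. Every listed gene summed to at least 10 over the libraries.

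Values were rounded to whole counts and scaled by TMM (edgeR 4.0.16, R 4.3.3). Ratios and levels were computed in Python 3.11.15 with numpy 2.4.6, pandas 2.3.3 and scipy 1.17.1. Log2 ratios used a pseudocount of 0.5 counts. Intervals at the 95% level are normal intervals of the log ratio, Poisson intervals for levels and Wilson intervals for shares, and cover counting error only. Genes whose mean level in both libraries reached 1 normalized CPM were analyzed, and a difference of at least 2-fold was counted. A level against 0 counts was computed from a floor of 3 counts per library. An edgeR quasi-likelihood fit compared resistant with parental lines over the 4 libraries, without and with the background as a block (1 residual degree of freedom), with Benjamini-Hochberg adjustment. It was chosen after seeing the data. The calculations were tested on simulated data.

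The members, the 9 gene lists and the comparisons were chosen with earlier results of these data known. Described in full were the 4 members of each class with the highest mean level and the 5 highest and 5 lowest ratios of each comparison, as well as SLBP, NPAT and, from each list, genes past 2-fold or at either end. H2AC8, H2BC8 and WBP11, and the members discussed as partners or copies, were chosen after their values were seen. All 51 members were matched to GENCODE release 29, 48 by Ensembl identifier and 3 by former symbol. A further 18 RefSeq genes with such names were not analysed here. Alternatives were DESeq2 1.42.0 size factors, upper quartile factors, total counts, other minimum levels, a pseudocount of 2, unrounded counts and sums without given members. Gene sets of MSigDB were not used. From the list of replication-independent histone variants, 1 gene is not reported here.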

Additional observations from a re-analysis of the deposited data

Results flagged for a closer look

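H2AC18, H2AC19, H4C3 and the summed H2A genes had counting intervals on opposite sides of 0 in the resistant lines, higher than the parental line in 2B-OlapR and lower in LN-OlapR. The log2 ratios were 0.68 and -0.35 for H2AC18, 0.46 and -0.39 for H2AC19, 0.24 and -0.10 for H4C3, and 0.10 and -0.32 for the H2A sum, in the 2B pair and the LN pair. Each rests on 1 library per line, and the difference between the pairs was not tested. H2AC18 and H2AC19 have the same coding sequence and are not independent of each other, and the H2A sum holds both.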

How the results depend on the processing

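No replicate could be left out, since each line had 1 library. The paired edgeR quasi-likelihood fit over the 4 libraries, chosen after seeing the data, gave 0 of 33 members with a Benjamini-Hochberg adjusted p under 0.05 without and with the background as a replicate block, and 0 and 8 members at an unadjusted p under 0.05. Of the results for counts, medians and sums of all members, with the counts of the edgeR fit, 74 values under the alternatives were labelled the same and 27 moved. Of the class sums and single genes 431 were labelled the same, 14 moved and 3 reversed. A count was labelled the same within a fixed fold of its main value. Other values were labelled the same inside the interval of the main value. A minimum mean of 0.1 normalized CPM gave 4 members at least 2-fold higher and 21 lower in the LN pair, 1 and 7 in the 2B pair and 16 higher in C4-2B over LNCaP. A minimum of 10 gave 0 lower in the 2B pair, 0 higher and 5 lower in the LN pair, and 1 and 1 in C4-2B over LNCaP. Requiring the whole interval past 2-fold left 0 lower in the 2B pair, 1 higher and 6 lower in the LN pair, and 2 and 1 in C4-2B over LNCaP. The shares of all genes were not computed under these alternatives, so the 2-fold counts in this paragraph have none to be set against. They were computed with no minimum at all. There, 4 members were at least 2-fold higher and 24 lower in the LN pair, against 9.88% and 10.02% of all genes. In the 2B pair 1 and 7 members were, against 9.96% and 11.3%, and in C4-2B over LNCaP 16 and 4, against 13.4% and 12.3%. Total counts as the scaling gave 1 higher member in the LN pair, and summed log2 ratios of -0.88 in the LN pair and -0.35 in the 2B pair. Without H1-2, the member with the highest mean level, the log2 ratios of the sums were -0.18 for the 2B pair, -0.45 for the LN pair and 0.29 for C4-2B over LNCaP. Leaving out members whose protein another shares gave -0.52, -1.31 and 0.46. That alternative removed every H3 and H4 gene, H4C3 among them, so it is not a check on copies alone. Summing copies with the same coding sequence, an alternative chosen after seeing the data, gave 0 lower members in the 2B pair and 1 higher in the LN pair. Reversed values came from leaving out 1 gene: the H1 sum of the 2B pair without H1-2 (0.038), its H2A sum without H2AC18 (-0.11) and the H4 sum of C4-2B over LNCaP without H4C3 (0.56). Depth limits the members with few counts, whose intervals are wide.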
